A study of Rattus norvegicus with 4 samples.

Results

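The immunoglobulin variable segment features of the rat middle ear mucosa are described here across 4 RNA-seq libraries. They were chosen by name alone: every row of the deposited expression table whose name begins with HV, KV or LV (heavy, kappa and lambda chain variable region) and ends in _MOUSE, _HUMAN or _RAT. This rule found 195 of the 27832 features, of which 90 were heavy, 100 kappa and 5 lambda. The 195 features carry 50 distinct names, each that of a mouse (119 features), human (65) or rat (11) protein entry. A name is therefore that of a similar protein, and 27 names stand on more than 1 feature. For this reason each feature is given below with its own identifier (TBIG and a number). The chromosomal positions are those of the deposited table, for which no genome build is named.

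The mucosa came from the right middle ear of SD (Sprague-Dawley) rats, 1 week after injection through the eardrum. The media group received medium without bacteria as vehicle control. The MRSA group received methicillin-resistant Staphylococcus aureus and the PA group Pseudomonas aeruginosa. The MRSA + PA group received both species. The volume was 50 µL and the inoculum 10000000 CFU, a dose that the sample records state for S. aureus under every sample. Each group had 1 library, and whether it pooled several rats is not stated. With 1 library per group there was no spread between replicates, so no p-value was computed and every difference below is between single libraries. Values are FPKM, fragments scaled to the length of the transcript and the size of the library. Read counts of a feature cannot be taken from FPKM alone. The paper's text gives reads only as ranges or averages over its samples, so the reads behind each value were not computed.

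An antibody is built from heavy chains and light chains, and a light chain is either kappa or lambda. Each B cell uses 1 variable segment for its heavy chain and 1 for its light chain, and its clonal descendants keep that choice. Plasma cells secrete antibody and hold very large amounts of this RNA, so a level in tissue depends on both the number of such cells and the RNA in each. In bulk RNA these cannot be told apart. In the mucosa, secreted IgA and IgM are joined by the J chain and carried across the epithelium by the polymeric immunoglobulin receptor.

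Transcription of variable segments starts from short promoters that hold an octamer bound by the factor POU2F2 and its B cell coactivator POU2AF1. None of the 50 names matched a gene symbol in RefSeq, so the promoters of the features themselves are not shown. To show what such a promoter looks like, the 130 bases before the start of the 3 rat genes with an Igkv (kappa variable) symbol in the RefSeq promoter table are given, 5′ to 3′ on the strand of the gene, in build GRCr8. Igkv5-45l1 lies at chr4:103029379-103029508 on the minus strand, Igkv8-30l1 at chr4:103389122-103389251 on the minus strand, and Igkvl15 at chr19:3099411-3099540 on the plus strand. Capitals mark the octamer ATGCAAAT or, on the other strand, ATTTGCAT, which are each other's complement.
Igkv5-45l1: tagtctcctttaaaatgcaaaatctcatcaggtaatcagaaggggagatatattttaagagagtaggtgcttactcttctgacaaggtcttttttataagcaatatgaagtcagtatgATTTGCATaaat
Igkv8-30l1: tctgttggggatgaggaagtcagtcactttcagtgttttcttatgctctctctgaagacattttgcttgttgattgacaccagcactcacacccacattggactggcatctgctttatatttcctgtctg
Igkvl15: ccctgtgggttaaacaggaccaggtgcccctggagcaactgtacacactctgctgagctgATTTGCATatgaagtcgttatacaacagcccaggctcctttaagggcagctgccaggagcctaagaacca
The octamer was found in 2 of these 3 windows and in 267 of all 33469 promoters of the table (0.798%). These genes were not matched to any feature, and a match in letters does not show binding.

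The variable segments were summed first, to ask how much of this RNA each library held. Summed over the 184 features of at least 300 bp, variable segments stood at 551 FPKM in media, 4693 after MRSA, 1405 after PA and 2930.2 after MRSA + PA. The sum was thus 8.51-fold the media value after MRSA, 2.55-fold after PA and 5.31-fold after MRSA + PA. As a share of the FPKM of all features of that length it was 0.0708%, 0.625%, 0.203% and 0.386%. The 11 shorter features are described apart, because single values among them exceed these sums. Among these 184 features, the heavy and kappa sums were highest in MRSA and the lambda sum in MRSA + PA. A heavy chain neighbour outside the naming rule, IGHV1OR21-1, is described below. It exceeded the heavy sums of MRSA and PA and was highest in PA. Its PA value of 5671 FPKM alone exceeded the sum over all chains in any library, while it was listed at 0 in MRSA + PA. The place of PA among the inocula therefore depends on the rule, for heavy chains and for all chains together.

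Heavy chain segments, which carry most of the contact surface of many antibodies, summed to 187 FPKM in media, 1762 after MRSA, 652 after PA and 722 after MRSA + PA. MRSA was 9.42-fold above media, and PA and MRSA + PA were close to each other at 3.49-fold and 3.86-fold. Kappa segments summed to 313, 2616, 588 and 1321 FPKM in the same order. Kappa was therefore 8.37-fold above media after MRSA, 1.88-fold after PA and 4.22-fold after MRSA + PA. The 5 lambda features summed to 51.7, 315, 165 and 888 FPKM, and here MRSA + PA stood furthest from media, at 17.2-fold against 6.10-fold in MRSA and 3.18-fold in PA. Among the inocula, the MRSA + PA sum was 0.409 of the MRSA sum for heavy chains and 0.505 of it for kappa, but 2.81-fold the MRSA sum for lambda.

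**Figure D1:**
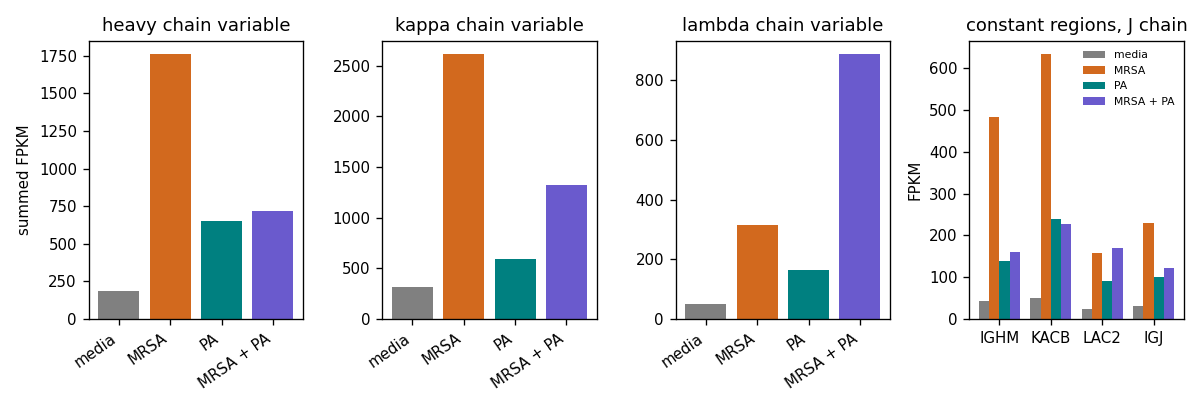
Summed FPKM of heavy, kappa and lambda chain variable segment features of at least 300 bp (first 3 panels) and FPKM of IGHM, KACB_RAT, LAC2_RAT and IGJ (last panel) in the 4 libraries, 1 bar per library and no error bars, since each group had 1 library. The MRSA bar is highest for heavy and kappa segments (1762 and 2616 FPKM) and the MRSA + PA bar for lambda segments (888 FPKM).

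Constant regions, which decide the class of the antibody, were set beside these sums. IGHM, the constant region of IgM, lies on chromosome 6 from 147047268 to 147286431 and was added to the list after its values were seen. It stood at 42.9 FPKM in media, 484 after MRSA, 139 after PA and 161 after MRSA + PA. The kappa constant region KACB_RAT (chromosome 4, 163300909 to 163309315) stood at 51.0, 634, 238 and 227 FPKM. Both were highest in MRSA, 11.3-fold and 12.4-fold above media, as the heavy and kappa variable sums were.
The lambda constant region LAC2_RAT (chromosome 11, 89193035 to 89194879) had 23.9 FPKM in media, 158 after MRSA, 90.9 after PA and 171 after MRSA + PA. Its neighbour LAC1_RAT had 4.27, 13.6, 5.49 and 4.34 FPKM. LAC2_RAT was highest in MRSA + PA, but only 7.17-fold above media, less than the 17.2-fold of the lambda variable sum. It was also close to its MRSA value, while the lambda variable sum was 2.81-fold that of MRSA. The IgE constant region IGHE_RAT had 2.93, 93.4, 86.2 and 47.3 FPKM. Its annotated span of 182417 bp lies inside the 239164 bp of IGHM on the same strand, and how reads were divided between them is not known. The values of these 2 features are therefore not read as amounts of IgM and IgE. IGHG1_RAT, an IgG constant region, was listed at 0 in all 4 libraries. It is placed from 148132467 to 148134006, among the variable segments, so this does not show that IgG RNA was absent. IGJ, the J chain, had 30.2, 229, 101 and 122 FPKM. The variable sum divided by IGJ was 18.2 in media, 20.5 after MRSA, 14.0 after PA and 24.0 after MRSA + PA, a much narrower range than the sum itself.

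The number of segments seen was counted next. At 1 FPKM or more, 58 of the 184 features were detected in media, 104 after MRSA, 93 after PA and 91 after MRSA + PA, which is 31.5%, 56.5%, 50.5% and 49.5%. Over all features of that length the share was 56.9% in media, 56.6% after MRSA, 56.4% after PA and 55.1% after MRSA + PA. Variable segments thus lay well under the overall share in media and near it in the inoculated libraries. Heavy segments numbered 25, 47, 41 and 39 of 85 in media, MRSA, PA and MRSA + PA. Kappa segments numbered 29, 53, 47 and 47 of 94, and lambda segments 4, 4, 5 and 5 of 5. Detection in all 4 libraries held for 42 features, and 68 reached 1 FPKM in none, among them 62 listed at 0 throughout. Of those seen at this level in a single library, 8 were seen in MRSA, 1 in PA, 2 in MRSA + PA and 0 in media. Of the 122 features above 0 in any library, 69 had their highest value in MRSA, 30 in MRSA + PA, 17 in PA and 6 in media. The last 2 sets of counts were not made for all features. At 100 FPKM or more there were 12 features in MRSA, 6 in MRSA + PA, 3 in PA and 0 in media. Of all 27563 features of that length, 1034 reached this level in MRSA, 1012 in MRSA + PA, 968 in PA and 981 in media.

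**Figure D2:**
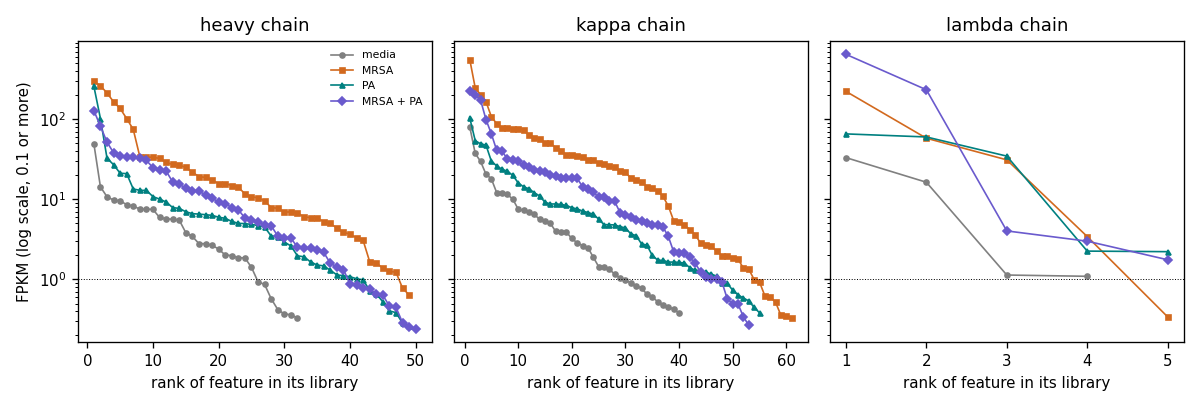
FPKM (log scale) of the features of at least 300 bp against their rank within each library, for heavy, kappa and lambda chains, with 1 line per library, values from 0.1 FPKM up and a dotted line at 1 FPKM. The MRSA line lies highest over most heavy and kappa ranks, the media line lowest, and the MRSA + PA line starts highest for lambda (646 FPKM).

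Feature by feature, most segments stood above media. Differences were taken as the log2 ratio of FPKM after 0.1 was added to each value, for the 109 features of at least 300 bp whose mean reached 1 FPKM, and called from 2-fold up. This filter keeps features that are high in 1 library, so the 109 are not all the members. Against media, 86 of the 109 were higher in MRSA, where 8.34% of all 15786 features passing the same filter were. In PA 60 were higher, against 9.92% of all features, and in MRSA + PA 73, against 7.7%. In percent, the segments called higher were 78.9% after MRSA, 55.0% after PA and 67.0% after MRSA + PA, each several times the overall share. The median log2 difference of the 109 was 3.45 after MRSA, 1.60 after PA and 2.20 after MRSA + PA, while over all features it was 0.05, 0.07 and 0.05. Media was listed at 0 for 33, 32 and 31 of the higher segments, for which no fold is given. Lower than media were 6 segments in MRSA (4.68% of all features), 15 in PA (7.6%, and from 4-fold up 9 segments against 2.83%) and 13 in MRSA + PA (7.56%). In percent these were 5.50%, 13.8% and 11.9% of the 109, nearer to the overall shares.

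**Figure D3:**
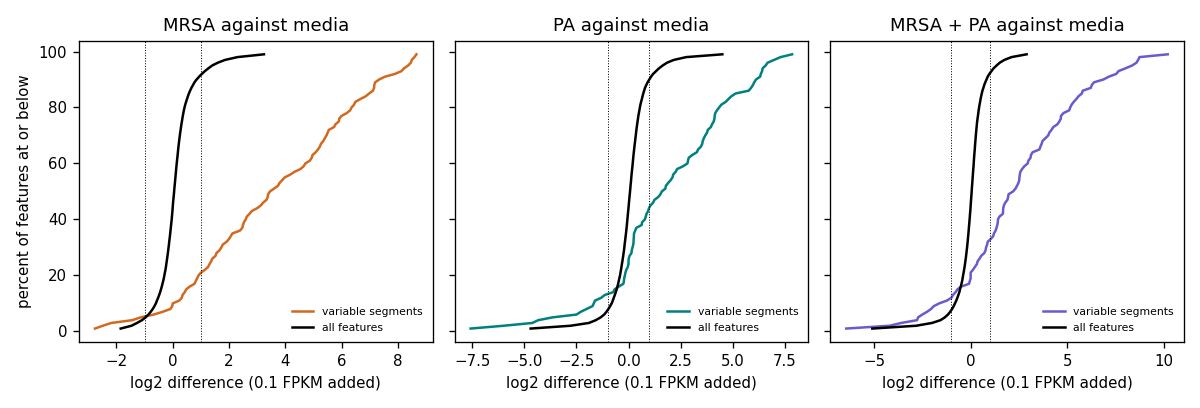
Cumulative distribution of the log2 difference from media (x axis, 0.1 FPKM added) for the 109 variable segment features (coloured) and all 15786 features passing the same filter (black), with dotted lines at 2-fold, 1 panel per inoculum. The coloured lines lie to the right of the black ones over most of their length, with medians of 3.45, 1.60 and 2.20 in MRSA, PA and MRSA + PA.

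By chain, 38 of 49 heavy, 45 of 55 kappa and 3 of 5 lambda features stood 2-fold or more above media in MRSA. In PA these were 28, 29 and 3, and in MRSA + PA 33, 35 and 5. The 3 comparisons share the media library, so its own deviations enter each of them. The inocula were also compared with each other. MRSA + PA was at least 2-fold higher than MRSA for 24 segments (1.49% of all features) and lower for 57 (5.51%). Against PA it was higher for 51 (2.44%) and lower for 28 (4.02%). MRSA against PA was higher for 68 segments (4.87%) and lower for 11 (3.33%). Of the 109 segments, between 72.5% and 74.3% differed at least 2-fold between any pair of inocula.

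Heavy chain features all lie on chromosome 6, from 147484076 to 152818716, beyond IGHM. A different segment led in each library. In media it was HVM45_MOUSE (TBIG022393, 148007039 to 148007371), with 49.5 FPKM in media, 102 after MRSA, 7.70 after PA and 12.7 after MRSA + PA. It held 26.5% of the heavy sum in media and 1.18% in PA. In MRSA the leader was HVR01_RAT (TBIG022432, 150924917 to 150925559), with 1.99, 298, 7.00 and 16.5 FPKM. Its MRSA value was 150-fold that of media and 42.5-fold that of PA. In PA it was HVM21_MOUSE (TBIG022417, 150164148 to 150165870), listed at 0 in media and at 15.7, 258 and 34.9 FPKM in MRSA, PA and MRSA + PA. This 1 feature held 39.6% of the heavy sum in PA, the largest share of a heavy feature in any library, and it lies inside the span of another feature that is described below. In MRSA + PA it was HVM45_MOUSE again by name but at another place (TBIG022401, 149190373 to 149190795), listed at 0 in media and at 6.96, 10.1 and 128 FPKM. It held 17.8% of the heavy sum in MRSA + PA and 0.395% in MRSA.

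Other named heavy segments were abundant without leading a library. HVM36_MOUSE (TBIG022409, 149849911 to 149850419) had 8.56 FPKM in media, 213 after MRSA, 102 after PA and 33.7 after MRSA + PA, at least 3.93-fold above media with every inoculum. HVM44_MOUSE (TBIG022402, 149381236 to 149382492) had 0.574, 261, 21.2 and 51.8 FPKM, with MRSA 455-fold above media. HVM49_MOUSE (TBIG022453, 151861847 to 151891819) was listed at 0 in media and had 74.6, 1.30 and 11.4 FPKM in the inoculated libraries. All 3 were highest in MRSA, and HVM36_MOUSE was above 100 FPKM in PA as well.
The remaining named heavy segments had other orders. HVM36_MOUSE (TBIG022422, 150431135 to 150431583), which shares a name with the abundant feature above, had 10.8, 6.77, 3.49 and 0.466 FPKM, highest in media and lowest in MRSA + PA. HV208_HUMAN (TBIG022466, 152818233 to 152818716), the feature furthest from IGHM, had 9.59, 1.62, 2.93 and 15.5 FPKM. HVR01_RAT (TBIG022438, 151085498 to 151085973) had 0.363, 25.0 and 4.97 FPKM in media, MRSA and PA and was listed at 0 in MRSA + PA. Set against MRSA, the MRSA + PA library was thus higher for HV208_HUMAN and lower for the other two.

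Along the heavy locus, the 85 features were divided by position into the 29 nearest to IGHM, the next 28 and the 28 farthest. The nearest group had 55.7 FPKM in media, 158 after MRSA, 22.4 after PA and 36.8 after MRSA + PA, and most of the media value was the single HVM45_MOUSE feature TBIG022393. The middle group had 65.9, 897, 482 and 461 FPKM and the farthest group 65.4, 707, 148 and 224 FPKM. In the inoculated libraries, the middle group of these features held the largest sum and the nearest group the smallest. Listed at 0 in all 4 libraries were 21 of the 29 nearest, 4 of the middle 28 and 6 of the farthest 28. The 108 bp feature TBIG022652, described below, lies within the stretch of the nearest group but is not in these sums. It had 18856 FPKM in MRSA and 14065 in MRSA + PA, more than any of these groups in those libraries. In MRSA, 6 of the 29 nearest, 23 of the middle 28 and 18 of the farthest 28 reached 1 FPKM.

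Kappa features lie mainly on chromosome 3 (49, from 21710414 to 25976202) and chromosome 4 (39, from 158476640 to 171078026), with the other 12 on chromosomes 1, 2, 9, 11, 17, 19 and X. KACB_RAT lies on chromosome 4. The 47 chromosome 3 features of at least 300 bp summed to 228, 1668, 454 and 949.8 FPKM in the order media, MRSA, PA, MRSA + PA. The 35 on chromosome 4 summed to 40.0, 774, 93.3 and 330 FPKM, and the 12 elsewhere to 44.8, 174, 40.5 and 41.0 FPKM. Relative to media, chromosome 4 features were 19.3-fold higher in MRSA and those on chromosome 3 7.32-fold. In MRSA 70.6% of the chromosome 4 sum came from 1 feature.

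That feature is KV206_HUMAN (TBIG019082, chromosome 4, 166872232 to 166872972), named for a human subgroup II kappa segment. It had 11.9 FPKM in media, 547 after MRSA, 4.79 after PA and 20.4 after MRSA + PA. It was the highest variable segment of at least 300 bp in MRSA, 45.9-fold above media, and was below media in PA. The same name stands on 20 kappa features of that length, which together held 59.1% of the kappa sum in media, 43.1% after MRSA, 23.9% after PA and 37.0% after MRSA + PA. Another, TBIG015927 (chromosome 3, 23166375 to 23390447), led the kappa chain in media, with 78.8, 245, 53.9 and 199.8 FPKM. A short stretch of the same chromosome gave TBIG017785 (23723277 to 23723589), with 37.3, 108, 22.4 and 99.1 FPKM. These last 2 features had a similar profile, 3.11-fold and 2.89-fold above media in MRSA and 0.683 and 0.599 of media in PA, and reads that fit more than 1 of the 20 places could be divided among them. TBIG015951 (chromosome 3, 25267706 to 25268435) was listed at 0 in media and PA and had 40.3 FPKM in MRSA and 40.8 in MRSA + PA. TBIG025925 (chromosome 9, 20952776 to 20953353) had 29.7 FPKM in media and 10.9 in MRSA and was listed at 0 in PA and MRSA + PA. TBIG018331 (chromosome 4, 158503678 to 158749112) was listed at 0 in media and had 12.7, 23.7 and 18.5 FPKM with the inocula.

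In PA and MRSA + PA the kappa chain was led by features named for mouse subgroup V segments. KV5A2_MOUSE (TBIG016915, chromosome 3, 21833711 to 21834237) led in PA, with 0.900 FPKM in media, 31.0 after MRSA, 102 after PA and 5.13 after MRSA + PA. A second feature of this name, TBIG015904 (21710414 to 21710966), had 0.382, 0.346, 30.0 and 6.42 FPKM. Both were highest in PA. KV5A3_MOUSE (TBIG015945, 24561862 to 24562340) led in MRSA + PA, with 0.422, 56.4, 9.18 and 225 FPKM, which is 532-fold above media, 3.98-fold above MRSA and 24.5-fold above PA. TBIG016927 (25944047 to 25976202), of the same name, had 2.50, 13.8, 0 and 65.9 FPKM. All 7 KV5A3_MOUSE features together held 7.88% of the kappa sum in media, 16.4% after MRSA, 4.11% after PA and 27.4% after MRSA + PA. KV501_HUMAN (TBIG018329, chromosome 4, 158476640 to 158477232) was listed at 0 in media and had 17.3, 7.87 and 173 FPKM, also highest in MRSA + PA. KV204_HUMAN (TBIG015906, 21845701 to 21846242) was listed at 0 in media and had 1.79, 16.1 and 29.7 FPKM.
The remaining named kappa features were lower with at least 1 inoculum. KV3A9_MOUSE (TBIG015917, 22475160 to 22475747) had 1.34 FPKM in media, 43.9 in MRSA and 4.83 in PA and was listed at 0 in MRSA + PA. KVX01_RAT (TBIG018395, chromosome 4, 171043513 to 171043903), the only kappa feature with a rat name, had 20.6, 27.6, 0 and 5.48 FPKM. KV5A6_MOUSE (TBIG018330, chromosome 4, 158499358 to 158499812) had 5.39, 0.929, 1.63 and 12.3 FPKM.

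**Figure D4:**
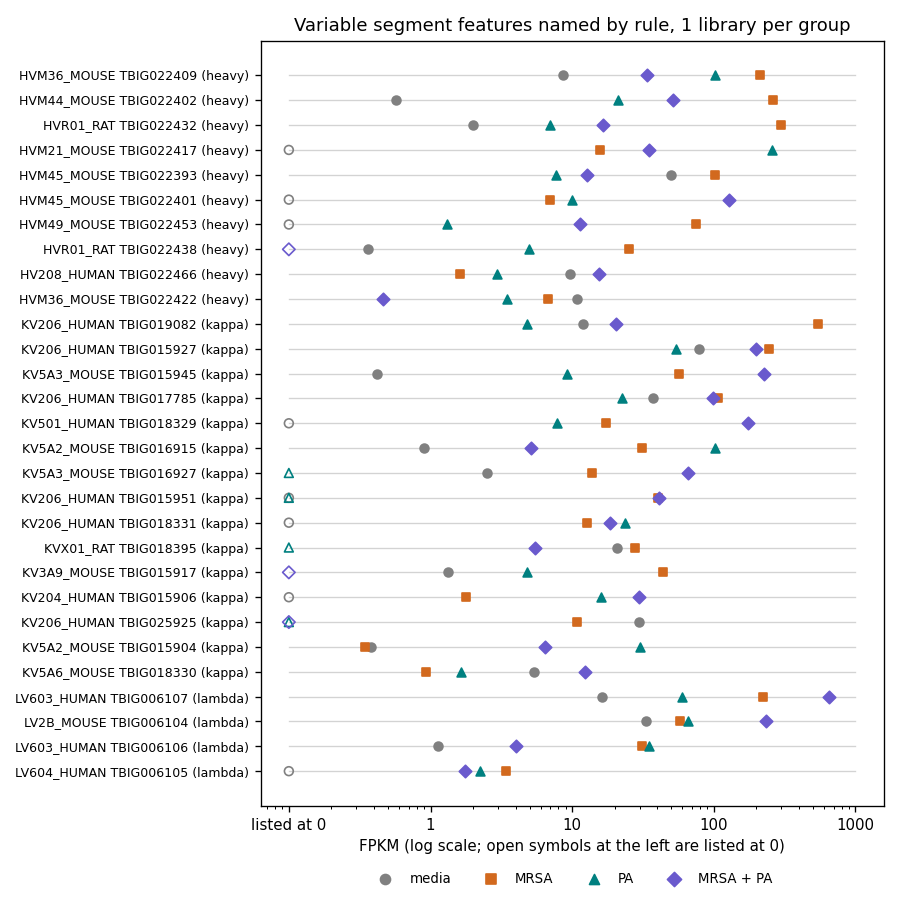
FPKM (log scale) of the 29 named variable segment features of at least 300 bp, 1 row per feature and 1 symbol per library, with open symbols at the left for values listed at 0. The order of the libraries changes from row to row, with HVM21_MOUSE TBIG022417 highest in PA (258 FPKM), KV206_HUMAN TBIG019082 in MRSA (547 FPKM) and LV603_HUMAN TBIG006107 in MRSA + PA (646 FPKM).

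Of the 5 lambda features, 4 lie on chromosome 11 upstream of LAC2_RAT and 1 on chromosome 15. LV603_HUMAN (TBIG006107, 88589990 to 88691458) had 16.3 FPKM in media, 223 after MRSA, 60.0 after PA and 646 after MRSA + PA. It was the highest variable segment of at least 300 bp in MRSA + PA, 39.5-fold above media, and held 72.7% of the lambda sum there. Its annotated span of 101469 bp lies inside that of TBIG006106 (88565745 to 88692683), of the same name, which had 1.13, 31.1, 34.6 and 4.03 FPKM. LV2B_MOUSE (TBIG006104, 88487790 to 88488335), a feature of 546 bp, had 33.2, 57.9, 65.6 and 233 FPKM. It was 7.03-fold above media in MRSA + PA, so the high lambda level there did not rest on the long feature alone. LV604_HUMAN (TBIG006105, 88525916 to 88526429) was listed at 0 in media and had 3.43, 2.22 and 1.76 FPKM. Restricted to features of 300 to 2000 bp, the lambda sum was 34.3, 61.7, 70.0 and 238 FPKM, or 1.80-fold, 2.04-fold and 6.95-fold above media, and PA then stood above MRSA.

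The balance of the light chains was read as lambda over kappa. For variable segments the ratio was 0.165 in media, 0.121 after MRSA, 0.280 after PA and 0.672 after MRSA + PA. For the constant regions (LAC1_RAT and LAC2_RAT over KACB_RAT) it was 0.551, 0.271, 0.404 and 0.771. Both were lowest in MRSA and highest in MRSA + PA, while media and PA changed places. Between MRSA and MRSA + PA, the lambda constant sum was nearly level (172 and 175 FPKM) and KACB_RAT was lower (634 and 227 FPKM). These 2 constant ratios thus differed mainly in their kappa part. With features of 300 to 2000 bp the variable ratio was 0.179, 0.0342, 0.157 and 0.258, with the same lowest and highest libraries. Lambda made up 9.38%, 6.72%, 11.7% and 30.3% of the variable sum. Variable over constant FPKM for lambda was 1.84 in media, 1.83 after MRSA, 1.71 after PA and 5.06 after MRSA + PA. For heavy chains over IGHM it was 4.36, 3.64, 4.71 and 4.49, and for kappa over KACB_RAT 6.13, 4.12, 2.47 and 5.81.

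**Figure D5:**
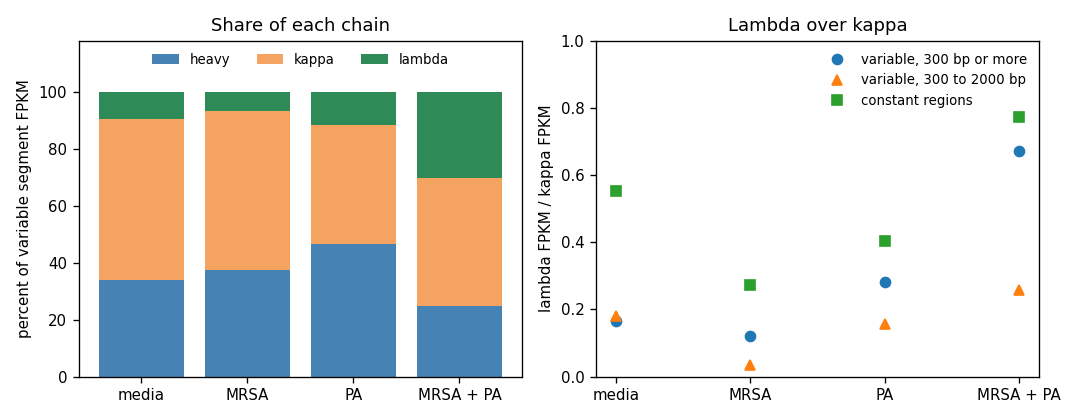
Left, percent of the variable segment FPKM held by heavy, kappa and lambda features of at least 300 bp in each library. Right, lambda FPKM over kappa FPKM for variable segments (all of at least 300 bp, and 300 to 2000 bp) and for constant regions, all highest in MRSA + PA (0.672, 0.258 and 0.771) and lowest in MRSA (0.121, 0.0342 and 0.271).

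Dominance asks how far a few segments made up the whole. Over all chains the highest feature held 14.3% of the sum in media, 11.6% after MRSA, 18.4% after PA and 22.0% after MRSA + PA. The 5 highest held 41.4%, 33.5%, 41.9% and 50.4%. The inverse Simpson number, which is the number of equally abundant features that would give the same concentration, was 20.3, 26.3, 17.4 and 13.1. By these values MRSA was the most even library and MRSA + PA the most concentrated, an order that turns without the features over 2000 bp. By chain this differed: for heavy chains the inverse Simpson number was 10.1, 11.3, 5.23 and 14.4, lowest in PA and highest in MRSA + PA, and for kappa it was 9.64, 13.5, 15.1 and 11.9. Within 300 to 2000 bp, which leaves out the long LV603_HUMAN features, the inverse Simpson number over all chains was 20.4 in media, 18.1 with MRSA, 12.9 with PA and 17.7 with MRSA + PA. The highest feature then held 12.2%, 16.2%, 22.3% and 12.7%, so media was the most even library and PA the most concentrated.

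The leading segments differed between libraries. The 10 highest of each library made 28 distinct features, and 2 features were in all 4 lists. Media shared 2 of its 10 with MRSA, 3 with PA and 5 with MRSA + PA, and each pair of inocula shared 3. The overlap of leaders was not computed for all features, so these counts describe the variable segments alone. The 10 leaders of MRSA held 52.3% of its own sum and 35.4% of that of MRSA + PA. Across segments at 1 FPKM or more in either library, the rank correlation of FPKM was 0.44 between MRSA and PA (112 features), 0.48 between MRSA and MRSA + PA (114) and 0.45 between PA and MRSA + PA (105). Between media and the inocula it was 0.35, 0.19 and 0.18 (109, 101 and 100 features). Over all features chosen the same way it was 0.88 to 0.95. These are descriptions across features that share libraries and, for segments of like sequence, may share reads.

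Features under 300 bp were kept apart by a limit set from the library fragment size of 350 to 450 bp. That size is not the length of the inserts. The average mRNA insert stated in the paper is shorter than the library fragments. It is also shorter than every one of these features except the shortest. The library size alone is therefore no reason to set the other short features apart. The 108 bp HVM44_MOUSE feature TBIG022652 (chromosome 6, 148460536 to 148460643) was listed at 0 in media and PA and at 18856 FPKM in MRSA and 14065 in MRSA + PA. It alone exceeded the sum of all longer variable segments in those libraries. KV5A6_MOUSE TBIG019572 (219 bp, chromosome 4, 158554381 to 158554599) was listed at 0 in media and had 302, 446 and 25.7 FPKM. HVM44_MOUSE TBIG022655 (284 bp, chromosome 6, 149685002 to 149685285) was listed at 0 in media and had 140.0, 0.858 and 1.15 FPKM. All 3 lack a strand and were without earlier annotation. The other 8 short features reached at most 22.6 FPKM, and 4 of them were listed at 0 in every library. Together the 11 held 1.40% of all variable segment FPKM in media, 80.5% after MRSA, 24.6% after PA and 82.8% after MRSA + PA. With them the sum was 43.0-fold, 3.33-fold and 30.5-fold above media. Whether the length set these values was not tested.

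Long features are a second limit on these sums. Of the 195 features, 21 span more than 2000 bp, up to 320245 bp, and 9 of those enclose another variable segment feature. They summed to 145, 1314, 249 and 1100.3 FPKM. Without them and the short ones, the sum was 8.31-fold, 2.84-fold and 4.50-fold above media. By annotation, 120 features were known genes, 32 known genes with new isoforms and 43 without earlier annotation. The last group held 49.3% of the sum in media, 37.3% after MRSA, 19.7% after PA and 36.6% after MRSA + PA.

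Some neighbours outside the naming rule were as high as the segments. IGHV1OR21-1 (TBIG022415, chromosome 6, 150102596 to 150188438), whose span of 85843 bp encloses HVM21_MOUSE TBIG022417 on the same strand, was listed at 0 in media and MRSA + PA and at 2359 FPKM in MRSA and 5671 in PA. An unnamed feature of 196 bp in the heavy chain region (TBIG022457) stood at 24911 FPKM in PA and was listed at 0 elsewhere. Both were named after their values were seen. Both rank PA above MRSA, which neither the heavy sum nor the sum over all chains did. A further 38 features of at least 300 bp are described as immunoglobulin variable regions under gene-style names. They summed to 68.7, 501, 441 and 448 FPKM, 7.29-fold, 6.41-fold and 6.52-fold above media.

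T cell receptor variable features, named in the same style, had another order. The 78 of at least 300 bp summed to 27.0 FPKM in media, 135 after MRSA, 209 after PA and 159 after MRSA + PA, highest in PA. Of the 26 that passed the filter, 23, 23 and 24 were above media by 2-fold or more after MRSA, PA and MRSA + PA. Over all features these shares were 8.34%, 9.92% and 7.7%. The 1 highest of the 78 features held 13.8%, 13.7%, 12.8% and 15.9% of the sum. The difference in order between the receptor families was not tested, since each group had 1 library.

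B cell genes other than immunoglobulin stood above media by less than the variable segments. Of the 18 genes of a B cell list, 14 passed the filter. Of these, 10 were at least 2-fold above media after MRSA, 9 after PA and 7 after MRSA + PA, with 0 lower. Over all features passing the filter, 8.34%, 9.92% and 7.7% were higher. The median log2 difference of the 14 B cell genes was 1.25, 1.17 and 1.07. MS4A1 (CD20), a surface protein of B cells, had 0.925 FPKM in media, 3.87 after MRSA, 2.78 after PA and 2.93 after MRSA + PA, and CD79B, a signalling chain of the B cell receptor, 3.27, 7.93, 5.42 and 5.15 FPKM. Between any pair of inocula, 0 of the 14 were 2-fold apart in either direction, which is near the low shares of all features given above for those pairs (1.49% to 5.51% in 1 direction). POU2F2, which binds the octamer shown above, had 1.13, 4.43, 3.87 and 3.16 FPKM, and POU2AF1 2.77, 5.08, 4.75 and 4.42 FPKM. The variable sum per CD79B FPKM was 169 in media, 591 after MRSA, 259 after PA and 569 after MRSA + PA.

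Of the plasma cell and antibody secretion list, 15 of 18 genes were in the table and 14 passed the filter. Against media, 4 were at least 2-fold higher after MRSA, 5 after PA and 2 after MRSA + PA, and 0 were lower. Of all features passing the filter, 8.34%, 9.92% and 7.7% were higher and 4.68%, 7.6% and 7.56% lower. Counts of 1 or 2 genes in this list and those below are too small to set apart from these shares. IGJ was highest in MRSA, as given above. TNFRSF17, a survival receptor of plasma cells that did not pass the filter, had 0.248, 1.18, 0.712 and 0.539 FPKM. XBP1, which drives the secretory machinery and is active in many secretory cells, had 109, 94.4, 98.2 and 75.2 FPKM. Of the signals and transport list, 4, 4 and 3 of 8 genes were higher and 2, 2 and 2 lower. CXCL13, which attracts B cells, had 10.3, 43.2, 69.6 and 33.4 FPKM, and PIGR, the receptor that carries IgA and IgM across epithelium, had 8.27, 19.1, 35.2 and 9.16 FPKM. Both were highest in PA, where the variable sum under the naming rule was the lowest of the inocula. Other genes of this list were highest in MRSA, as that sum was. Of 4 recombination and germinal centre genes that passed, 2, 1 and 1 were higher. RAG1, needed to join variable segments, stayed at or under 0.133 FPKM in all libraries.

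Markers of other tissue also differed between the libraries. All 6 T cell markers were at least 2-fold above media in each inoculated library, with a summed level of 23.7 FPKM in media and 119 to 129 with the inocula. All 6 skeletal muscle markers were lower, with sums of 6392 FPKM in media, 2335 after MRSA, 4.90 after PA and 0.700 after MRSA + PA, and MYL2 and MYH4 were listed at 0 in MRSA + PA. All 3 erythroid markers found were lower, with 11578 FPKM in media and 1163 to 2259 with the inocula. The 4 myeloid precursor markers found, which would mark bone marrow, summed to 6.44 to 12.6 FPKM over the 4 libraries. The part of these shifts in tissue content in the variable segment values was not tested.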

How the data were processed

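RNA from the mucosa of 1 media, 1 MRSA, 1 PA and 1 MRSA + PA sample was sequenced by the authors after poly(A) selection. The deposited table holds FPKM values, made by the authors with STAR 2.3.0e and Cufflinks 2.1.1, which the submitters' processing notes name along with edgeR. The paper's methods name Ensembl release 72 and the human reference, while the table lists 20 numbered chromosomes and X. The authors' comparison tables hold log2 ratios, p-values and q-values of 1 library against 1 library and were not used, nor were their 12 columns that repeat values of the same libraries.

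Members were found by name, and those under 300 bp were shown apart. Sums, shares and features at 1 FPKM or more were computed with Python 3.11.15, pandas 2.3.3 and numpy 2.4.6, and plots with matplotlib 3.10.9. A log2 difference used 0.1 FPKM added to each value and a filter of a mean of at least 1 FPKM; the arithmetic was tested on simulated data. Each listed gene was represented by its feature with the highest mean; some listed genes are not reported here by name.

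Named features were, per chain, the 4 highest by mean and the highest in each library; for each of 6 pairs, the 3 furthest apart each way among those whose mean reached 5 FPKM; and short features reaching 100 FPKM. Members, lists and rules were chosen with earlier results of these data known. Features of 300 to 2000 bp, and segments with gene-style names, were added after the data were seen.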

Additional observations from a re-analysis of the deposited data

Results flagged for a closer look

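In 11 of the 74 variable segment features of 300 bp or more whose mean reached 5 FPKM, 1 inoculum was at least 2-fold above media and another at least 2-fold below it. The share of all features with such opposite differences was not computed, so whether 11 of 74 is a high count is not known. Each group had 1 library, so these differences between the inocula were not tested, and all share the media library. Values are log2 differences from media with 0.1 FPKM added. In 5 features MRSA stood furthest above media and PA furthest below. These were KV5A3_MOUSE TBIG015933 (4.72 and -1.87), KV3A9_MOUSE TBIG016917 (3.12 and -2.27), KV5A3_MOUSE TBIG016925 (2.86 and -2.31), KV206_HUMAN TBIG019082 (5.51 and -1.30) and HVM45_MOUSE TBIG022393 (1.04 and -2.67), the last of which was also below media in MRSA + PA (-1.96). In 4 others MRSA was above and MRSA + PA below, namely KV3A9_MOUSE TBIG015917 (4.94 and -3.85), KV206_HUMAN TBIG015920 (2.08 and -1.56), HVR01_RAT TBIG022427 (1.74 and -1.18) and HVR01_RAT TBIG022438 (5.76 and -2.21). In the remaining features MRSA + PA stood furthest above media. For KV5A3_MOUSE TBIG016927 PA was below (4.67 and -4.70), and MRSA was above as well (2.42). For KV5A6_MOUSE TBIG018330 MRSA was below (1.18 and -2.42), and PA was below as well (-1.66). Of the 11, TBIG015917 and TBIG022438 were listed at 0 in MRSA + PA and TBIG016927 in PA, so the size of those differences depends on the amount added.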

How the results depend on the processing

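No replicate could be left out, and the libraries of a group could not be paired. No paired analysis was possible because each group had 1 library. FPKM gives no read count for a feature, and the paper's text gives reads only as ranges or averages, so counting error was not computed. No sum changed its direction from media, and no log2 difference of a named feature from media did, under the alternatives tried. With features of 300 to 2000 bp, the order of MRSA and PA turned for the lambda sum (61.7 and 70.0 FPKM), and that of PA and MRSA + PA for the share of the highest feature (22.3% and 12.7%). With features under 300 bp included, the sum over all chains was 43.0-fold above media in MRSA and 30.5-fold in MRSA + PA, and the highest feature held 78.5% and 82.6%. With FPKM multiplied by span, a weighting that the longest features dominate, the sum in PA was 1.47-fold above media, and the highest feature held 62.3% in media, 27.8% after MRSA, 28.9% after PA and 45.2% after MRSA + PA. By chain, that weighting gave 54.2-fold and 12.6-fold for heavy segments in MRSA and MRSA + PA, 1.14-fold for kappa in PA, and 14.6-fold, 5.78-fold and 36.3-fold for lambda. With the highest feature of each chain removed, lambda in PA was 5.34-fold above media, and over all chains the next held 7.21% after MRSA, 10.4% after PA and 12.1% after MRSA + PA. Features of the same name summed gave 33.5% in media and 24.0% in MRSA. At 5 FPKM, 32 features were detected in media and 51 in PA. With a mean of at least 5 FPKM, 3 features were lower than media in MRSA and 8 in MRSA + PA, and from 4-fold up, 9 were lower in PA (2.83% of all features). With 1 FPKM added, the B cell genes higher than media were 5 in PA and 4 in MRSA + PA, and the plasma cell genes 1 after MRSA, 3 after PA and 1 after MRSA + PA. Scaling to equal FPKM sums or by median of ratios moved none of these results by over 1.5 times.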
